A study of Sus scrofa with 20 samples.

Results

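Adipokines are signal proteins that fat cells release into the blood, and the genes described here are 10 of them and their receptors: ADIPOQ (adiponectin), LEP (leptin), APLN (apelin), METRNL (meteorin-like), RARRES2 (chemerin), NAMPT (nicotinamide phosphoribosyltransferase), RETN (resistin), the adiponectin receptors ADIPOR1 and ADIPOR2, and the leptin receptor LEPR. They were chosen by symbol, and each of the 10 symbols matched 1 Ensembl identifier among the 31907 genes of the count table. RNA was sequenced from backfat, the fat layer under the skin of the back, and from liver of Nanchukmacdon pigs, with 5 libraries per tissue and 10 in all. All animals were boars labelled WT, with a normal disease state and an age of 22 months, although the methods of the study give another average age. No treatment, deletion or transgene was part of the design, and each library was made from bulk tissue, so fewer cells of a type and less RNA per cell cannot be told apart. Libraries are named by tissue and by the boar number in the column names of the table (65, 67, 69, 71 and 72).

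Adiponectin is made almost entirely by fat cells and circulates as multimers that act on liver and muscle through ADIPOR1 and ADIPOR2, receptors with hydrolase activity toward ceramides that are linked to the kinase AMPK and to PPARA. Leptin reports the size of the fat store to the brain through LEPR, a cytokine receptor that signals through JAK2 and STAT3. Chemerin is a chemoattractant that is secreted by liver and fat as a precursor, apelin is a vascular peptide, resistin is a fat cell hormone in rodents and mainly a product of myeloid cells in humans, and NAMPT, which also circulates as visfatin, catalyses the rate-limiting step of NAD salvage inside cells.

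The libraries held between 43820042 and 61772737 counts. Adipocyte markers (5 found of 6 listed: PLIN1, CIDEC, LIPE, FABP4 and PPARG) summed to between 8467 and 11140 CPM (counts scaled to a library of 1000000) in backfat and to between 9.71 and 12.5 CPM in liver, and the 8 hepatocyte markers summed to between 201 and 701 CPM in backfat and to between 20210 and 82520 CPM in liver, so each labelled tissue held its defining transcripts. Most of the hepatocyte sum in backfat was 1 gene, APOA1, at 279, 291, 591, 213 and 198 CPM in boars 65, 67, 69, 71 and 72. A pair of libraries stood apart in mitochondrial share or hepatocyte markers. Liver 67 had 44.5% of its counts on 13 mitochondrially encoded genes, against 6.38% to 20.2% in the other liver libraries, the lowest hepatocyte sum (20210 CPM) and the highest red cell sum (1315 CPM, others 63.7 to 291). Backfat 69 had the highest hepatocyte sum of backfat, with albumin (ALB) at 44.6 CPM against 0.155 to 0.480 in the other backfat libraries. Skeletal muscle markers (2 found of 5 listed) also varied within backfat, at 549, 136, 172, 25.7 and 7.30 CPM in boars 65, 67, 69, 71 and 72.

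Levels below are CPM after scaling by the trimmed mean of M values (TMM), a change is the log2 fold change of backfat over liver, and DEGs are genes at FDR ≤ 0.05 whose log2 fold change reached 2 toward backfat or liver. Across the genome 16275 genes were tested and 22.3% of them were DEGs, of all tested genes 11.1% toward backfat and 11.2% toward liver, while 55% passed the FDR with any fold. Of the 10 genes, 9 were tested, since RETN had too few counts. ADIPOQ, LEP and APLN were higher in backfat (3 DEGs), LEPR and RARRES2 were higher in liver (2 DEGs), and ADIPOR2, METRNL and NAMPT passed the FDR with a smaller fold (3 genes). ADIPOR1 did not pass the FDR. The median log2 fold change of the 9 tested genes was 1.34, beside 0.00014 over all tested genes.

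**Figure D1:**
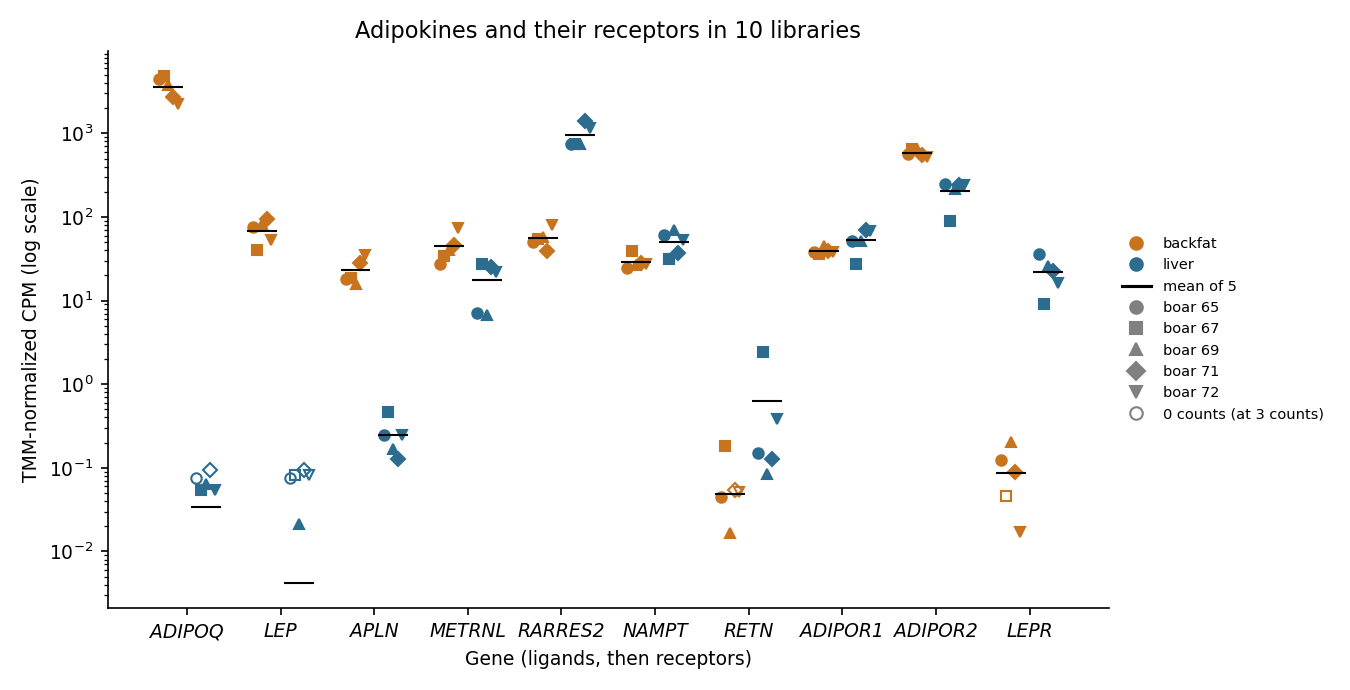
TMM-normalized CPM (log scale) of the 10 genes in each library, backfat in orange and liver in blue, with a marker shape for each boar and a black line at the mean of 5. Open markers stand for 0 counts and are drawn at the level of 3 counts, about the upper 95% bound on the expected count where 0 were seen. ADIPOQ, LEP and APLN separate toward backfat, LEPR and RARRES2 toward liver, and RETN in liver 67 (2.43 CPM) lies above the other liver libraries.

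Adiponectin had the highest level of these genes in backfat and was almost without counts in liver. ADIPOQ (chr13:124633906-124646237 of Sscrofa11.1) was at 4408 CPM in backfat 65, 4843 in backfat 67, 3817 in backfat 69, 2724 in backfat 71 and 2247 in backfat 72. The 5 liver libraries held 0, 2, 3, 0 and 2 counts. Backfat 72 and 71 were the lowest of their tissue, yet no backfat library came near any liver library. The log2 fold change was 16.52 (SE 0.775, adjusted p = 9.59e-09), and the summed counts gave a ratio of 102400 with a 95% interval of 49680 to 254600 that covers counting error only. Per kilobase of exon, ADIPOQ ranked 40th of all genes in backfat and took 0.482% of the summed backfat counts. Fat cell markers, given here as CPM of all counts without TMM, did not share one order over the backfat libraries. PLIN1, the coat protein of the fat droplet, was lowest in backfat 72 and 71, at 2033, 1977, 1654, 1284 and 1008 CPM in boars 65, 67, 69, 71 and 72, and LIPE, the hormone-sensitive lipase, was at 1113, 1315, 512, 519 and 301 CPM. FABP4, a fatty acid carrier, was at 5721, 7285, 5823, 5673 and 6486 CPM. With TMM, the scale used for ADIPOQ, FABP4 was at 3986.3, 5331.6, 4751, 4617.2 and 5488.5 CPM. On that scale backfat 65 was its lowest library and backfat 72 its highest. CIDEC, another droplet protein, was highest in backfat 71 and lowest in backfat 67 (584, 404, 635, 811 and 540 CPM), and PPARG, the nuclear receptor of fat cell formation, was also lowest in backfat 67 (273, 161, 183, 180 and 239 CPM). The TMM factors of boars 65, 67, 69, 71 and 72 in backfat were 1.436, 1.367, 1.226, 1.229 and 1.182. Divided by these factors, PLIN1 had the library order of ADIPOQ, and LIPE had it apart from backfat 69 and 71. CIDEC and PPARG did not have that order on either scale. The part that the fat cell content of a sample had in the spread of ADIPOQ was not tested.

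Leptin was present in every backfat library and had 1 count in all of liver. LEP (chr18:20106867-20124071) was at 75.1 CPM in backfat 65, 40.2 in backfat 67, 81.3 in backfat 69, 94.1 in backfat 71 and 52.9 in backfat 72, and its liver count fell in liver 69. Backfat 67, which was the highest library for ADIPOQ, was the lowest for LEP, and backfat 71, the highest for LEP, was the second lowest for ADIPOQ. LEP had a log2 fold change of 13.15 (SE 0.496, adjusted p = 1.82e-09), and the ratio of summed counts was 13200, with a 95% counting interval of 2370 to 521600. Without liver 69 the liver count was 0, so the size of the fitted fold rests on that count. The highest backfat library held 2.34 times the lowest for LEP and 2.16 times the lowest for ADIPOQ.

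Apelin was the third gene called toward backfat. APLN (chrX:106236746-106246563) was at 18.4, 18.6, 15.9, 28.4 and 34.7 CPM in backfat of boars 65, 67, 69, 71 and 72, and at 0.249, 0.459, 0.170, 0.126 and 0.244 CPM in their livers. Backfat 71 and 72 were the highest of their tissue and liver 67 the highest of liver, and the tissues did not overlap. APLN had a log2 fold change of 6.52 (SE 0.380, adjusted p = 3.92e-08), which is 92.0-fold. Endothelial markers, 4 found of 5 listed, summed to between 771 and 1552 CPM in backfat and between 72.3 and 158 CPM in liver, and within backfat their lowest sum fell in backfat 72, the library with the most APLN. The part of endothelial cells in the level of APLN was not tested.

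Meteorin-like, a secreted factor of fat and muscle, was higher in backfat by a smaller fold. METRNL (chr12:228228-241491) was at 27.3, 34.1, 40.8, 45.9 and 74.6 CPM in backfat of boars 65, 67, 69, 71 and 72. Its liver levels were 7.03, 27.5, 6.69, 25.3 and 21.7 CPM, so liver 65 and 69 lay well under the other liver libraries, and liver 67 overlapped the lowest backfat library. In each of the 5 boars backfat exceeded liver. The log2 fold change was 1.34 (SE 0.421, adjusted p = 0.0171), and without backfat 72 it was 1.08 (adjusted p = 0.0489). METRN, the paralog of METRNL, had no identifier in the gene name table, so the planned ratio of these genes was not computed.

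Chemerin reversed the pattern, with liver far above backfat. RARRES2 (chr18:55903693-55906976) was at 747, 748, 747, 1393 and 1152 CPM in liver of boars 65, 67, 69, 71 and 72, and at 49.9, 55.2, 56.9, 38.8 and 80.4 CPM in backfat. The livers of boars 71 and 72 were above the other livers, which lay within 2 CPM of each other, and no backfat library reached any liver library. Toward liver, RARRES2 had a log2 fold change of -4.09 (SE 0.314, adjusted p = 3.50e-07), or 17.0-fold higher in liver, and per kilobase of exon RARRES2 ranked 55th of all genes in liver. Liver 67, with the lowest hepatocyte sum, was level with livers 65 and 69 for RARRES2 after TMM, a scale that the hepatocyte sum does not use. Before scaling, liver 67 had the fewest RARRES2 counts of liver, 27708 of 51325543. Liver 65 had 29970 of 43820042 and liver 69 had 35169 of 53768601.

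NAMPT was moderately higher in liver. NAMPT (chr9:106119896-106162126) was at 24.8, 38.8, 26.7, 27.8 and 27.6 CPM in backfat and at 60.6, 31.3, 69.1, 37.1 and 52.6 CPM in liver of boars 65, 67, 69, 71 and 72. Boar 67 was the exception among the 5 boars, with its backfat above its liver, and the tissues overlapped. The log2 fold change was -0.78 (SE 0.225, adjusted p = 0.0105), and when counts were scaled by library size only it was -0.11 (adjusted p = 0.756), a scaling that moved the median of all tested genes by 0.71. The RefSeq gene model of NAMPT shares 2972 exonic bases with LOC110255500 on the other strand, and the counting did not use strand, so reads of the shared stretch cannot be told apart.

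Resistin was close to absent from backfat. RETN (chr2:71484164-71485577) had 4, 12, 1, 0 and 0 counts in backfat and 6, 90, 4, 4 and 14 counts in liver of boars 65, 67, 69, 71 and 72. Liver 67 alone held 90 of the 118 liver counts, at 2.43 CPM against 0.0849 to 0.380 CPM in the other livers. With no filter on low counts RETN had a log2 fold change of -3.49 (SE 1.10, adjusted p = 0.0200), and without liver 67 it was -1.80 (adjusted p = 0.145), no longer a call. Liver 67 also had the highest sum of neutrophil markers in liver (4 found of 6 listed, 17.6 CPM against 2.10 to 5.05), the highest red cell sum, and skeletal muscle transcripts at 97.4 CPM against 0.246 to 0.959 (2 found of 5 listed). Backfat 72, with the highest neutrophil sum of backfat (16.1 CPM) and 0 RETN counts, did not follow that order. S100A12 gave 12.7 CPM of that sum, while MPO of the same list was highest in backfat 67 (0.313 CPM). Macrophage markers (5 found of 6 listed) had their highest sums in backfat 67 and liver 67, the libraries of each tissue with the most RETN counts. Those sums were 343 CPM (others 156 to 329) and 306 CPM (others 227 to 263). The part of blood cells or macrophages in the RETN counts of liver 67 and backfat 67 was not tested.

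The adiponectin receptors differed in their tissue pattern. ADIPOR2 (chr5:68755789-68807247) was at 569, 652, 645, 546 and 525 CPM in backfat and at 250, 88.3, 215, 243 and 240 CPM in liver of boars 65, 67, 69, 71 and 72. Every backfat library exceeded every liver library, and liver 67 was far below the other livers. ADIPOR2 had a log2 fold change of 1.50 (SE 0.280, adjusted p = 0.00060), and without liver 67 it was 1.27. In the RefSeq annotation ADIPOR2 shares 2156 exonic bases with CACNA2D4, a calcium channel subunit gene on the other strand, and the same limit applies there.

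ADIPOR1 (chr10:24907491-24923540) was at 37.9, 35.9, 45.0, 39.7 and 37.9 CPM in backfat and at 51.4, 27.1, 52.2, 69.2 and 68.5 CPM in liver. Liver 67 was below all backfat libraries and the other livers were above all of them. The log2 fold change was -0.45 (SE 0.223, adjusted p = 0.105). Without liver 67 the log2 fold change was -0.66 and passed the FDR (adjusted p = 0.00209), and with library size alone the sign turned, to 0.27 (adjusted p = 0.320).

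The ratio of the receptors needs no scaling between libraries, since both are counted in the same library. ADIPOR2 counts were 15.0, 18.2, 14.3, 13.7 and 13.8 times the ADIPOR1 counts in backfat of boars 65, 67, 69, 71 and 72, and 4.86, 3.26, 4.12, 3.51 and 3.50 times in liver. These ratios hold both gene lengths, so only their difference between tissues is read here. Backfat had a mean log2 ratio of 3.90 ± 0.165 and liver a mean of 1.93 ± 0.233 (SD over 5 libraries each). The tissues differed by 1.97 (exact permutation test, two-sided, p = 0.00794 and 0.00794 after adjustment over 2 ratios), the smallest p that 252 arrangements can give. An exact test that flips signs within boars reached p = 0.0625, which is as low as this test can go with 5 pairs. It therefore cannot pass 0.05 here. In liver 67, where both receptors were low, the ratio lay next to those of livers 71 and 72, and without that library the difference was 1.92.

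**Figure D2:**
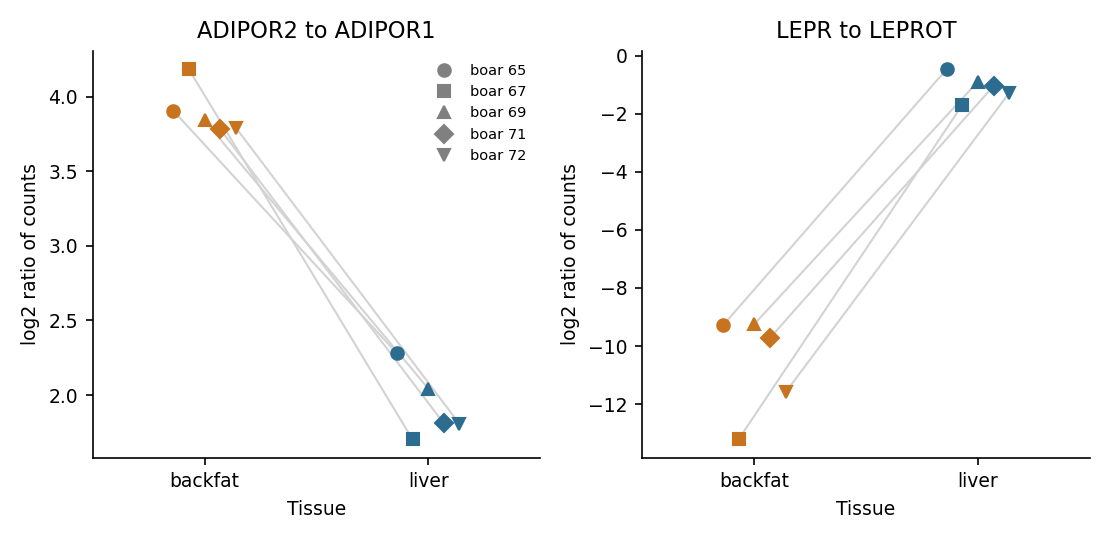
Log2 ratio of counts for ADIPOR2 to ADIPOR1 (left) and LEPR to LEPROT (right) in each library, with 0.5 added to each count, and a grey line joining backfat and liver of the same boar. In all 5 boars ADIPOR2 to ADIPOR1 was higher in backfat (3.78 to 4.18) than in liver (1.70 to 2.28), and LEPR to LEPROT was lower in backfat (-13.2 to -9.25) than in liver (-1.69 to -0.46).

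The stretches just before the annotated starts of these paralogs are shown because the genes bind the same ligand and differed in tissue pattern. Each is 250 bases of Sscrofa11.1, upstream of the start of the RefSeq model, 5′ to 3′ on the strand of the gene, and capitals mark the motifs found on either strand (the sequence CCAAT, known as the CAAT box, and GGGCGG, known as the GC box). The ADIPOR1 window is chr10:24923541-24923790, minus strand, and the ADIPOR2 window is chr5:68755539-68755788, plus strand.
ADIPOR1: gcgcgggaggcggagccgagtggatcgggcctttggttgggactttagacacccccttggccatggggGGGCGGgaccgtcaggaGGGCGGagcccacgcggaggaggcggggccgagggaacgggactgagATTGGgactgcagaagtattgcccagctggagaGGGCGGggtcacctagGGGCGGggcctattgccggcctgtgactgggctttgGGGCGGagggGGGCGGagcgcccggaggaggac
ADIPOR2: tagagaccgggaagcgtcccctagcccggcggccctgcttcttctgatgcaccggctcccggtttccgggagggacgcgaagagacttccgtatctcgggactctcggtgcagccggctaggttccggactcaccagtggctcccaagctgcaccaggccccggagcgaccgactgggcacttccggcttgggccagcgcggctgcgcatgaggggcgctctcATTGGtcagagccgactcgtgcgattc
The ADIPOR1 window held 6 GC boxes and the ADIPOR2 window 0, and each held 1 CAAT box on the other strand. Of 19556 windows of the same length before protein-coding genes, 46.2% held GGGCGG and 31.8% held CCAAT. Neither window held a TATA box (TATAAA, in 9.7% of windows), an E-box (CACGTG, 6.4%) or a C/EBP site (TTGCNNAA, 8.1%), and they held 20 and 25 CpG sites, beside a median of 12. These matches describe letters only.

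The leptin receptor was a liver transcript in these animals, the reverse of its ligand. LEPR (chr6:146802297-146896152) was at 36.6, 9.18, 26.2, 22.8 and 16.2 CPM in liver of boars 65, 67, 69, 71 and 72, and its backfat counts were 11, 0, 12, 5 and 1. The lowest liver library, liver 67, still held 340 counts. The highest backfat library, backfat 69 with 12 counts, also had the highest hepatocyte sum of backfat, with ALB at 44.6 CPM. Backfat 65 held 11 LEPR counts with ALB at 0.453 CPM. The part of hepatocyte RNA in the LEPR counts of backfat was not tested. LEPR had a log2 fold change of -7.95 (SE 0.662, adjusted p = 7.02e-07), or 247-fold higher in liver. With each of the 10 libraries left out in turn, among them backfat 69 and liver 67, it stayed between -8.44 and -7.62.

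LEPROT, a protein of endosomal sorting that lowers the amount of leptin receptor at the cell surface, went the other way. It was at 81.1, 72.6, 128, 83.9 and 79.7 CPM in backfat and at 50.3, 29.7, 48.5, 46.8 and 39.3 CPM in liver of boars 65, 67, 69, 71 and 72, without overlap (log2 fold change 1.05, SE 0.201, adjusted p = 0.00072). In many mammals the start of LEPR lies within LEPROT. In the RefSeq annotation used here both lie on the minus strand of chromosome 6 with 78.5 kb between them and share no exonic base. Backfat had a mean log2 ratio of LEPR to LEPROT of -10.6 ± 1.74 and liver a mean of -1.07 ± 0.458 (SD over 5 libraries each), and the tissues differed by -9.55 (exact permutation test, two-sided, p = 0.00794 and 0.00794 after adjustment over 2 ratios, and p = 0.0625 with boars paired by the exact sign-flip test). Backfat 67 had 0 LEPR counts and backfat 72 had 1, so the size of this difference rests on the 0.5 added to each count, and it was -9.21 with 1 added and -8.89 without backfat 67.

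The upstream windows of LEPR (chr6:146896151-146896400) and LEPROT (chr6:146987262-146987511), both minus strand, are shown because these genes belong to the same receptor system and were called or moved in opposite directions, and capitals mark the same motifs.
LEPR: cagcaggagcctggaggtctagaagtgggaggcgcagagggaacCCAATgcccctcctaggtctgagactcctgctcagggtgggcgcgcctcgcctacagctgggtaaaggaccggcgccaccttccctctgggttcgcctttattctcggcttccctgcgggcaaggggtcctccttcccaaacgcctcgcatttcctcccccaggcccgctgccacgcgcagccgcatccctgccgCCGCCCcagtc
LEPROT: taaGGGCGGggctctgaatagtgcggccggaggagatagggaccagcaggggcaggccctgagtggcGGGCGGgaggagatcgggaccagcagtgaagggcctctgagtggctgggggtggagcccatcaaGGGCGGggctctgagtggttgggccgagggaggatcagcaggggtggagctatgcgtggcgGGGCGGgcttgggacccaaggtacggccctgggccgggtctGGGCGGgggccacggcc
The LEPR window held 1 GC box and 1 CAAT box, and the LEPROT window held 5 GC boxes and 0 CAAT boxes. They held 17 and 15 CpG sites, and no TATA box, E-box or C/EBP site. RefSeq gives LEPR 7 transcript models, and the window was set by the start of a single model. Of its 250 bases, 2 lie in a RefSeq exon. Which start is used in these tissues was not tested.

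**Figure D3:**
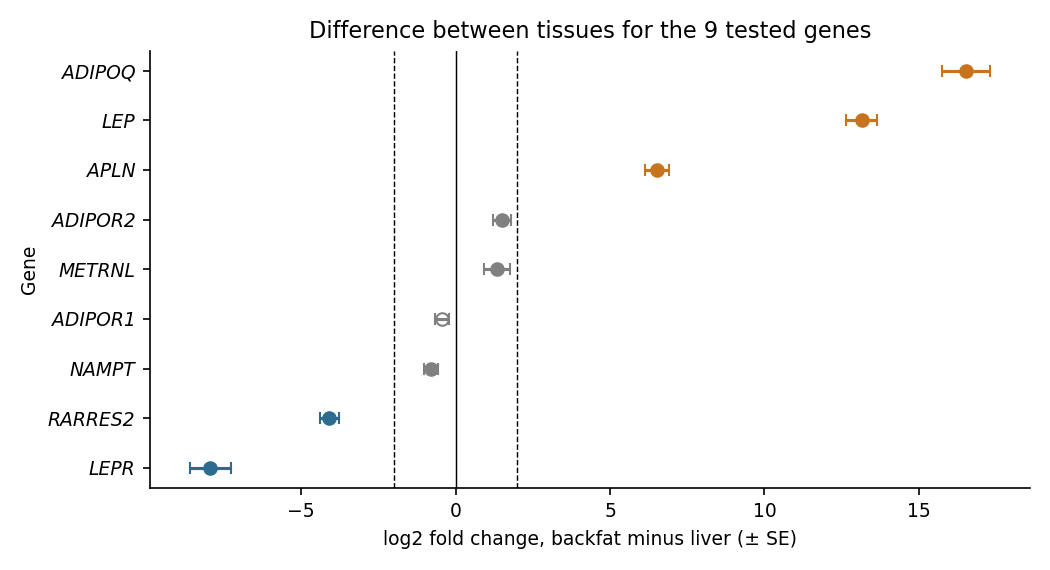
Log2 fold change of backfat over liver with its standard error for the 9 tested genes, orange or blue where called toward backfat or liver, grey where the fold was under the threshold, and open where the FDR was not passed (ADIPOR1). Dashed lines mark a log2 fold change of 2 in either direction. The values run from 16.52 for ADIPOQ to -7.95 for LEPR.

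Levels of different genes were compared per kilobase of exon (RPKM). In backfat the order was ADIPOQ (938 ± 286), ADIPOR2 (150 ± 14.8), RARRES2 (64.3 ± 17.4), METRNL (35.6 ± 14.6), LEP (21.3 ± 6.76), APLN (7.74 ± 2.67), ADIPOR1 (4.69 ± 0.415), NAMPT (2.95 ± 0.558), RETN (0.0884 ± 0.139) and LEPR (0.00772 ± 0.00733 RPKM, SD, n = 5 for each). In 5 of the 9 neighbouring pairs the libraries did not overlap. METRNL and LEP, APLN and ADIPOR1, and RETN and LEPR kept their order in 4, 4 and 3 of the 5 libraries. In liver the order was RARRES2 (1094 ± 343), ADIPOR2 (52.8 ± 17.2), METRNL (14.1 ± 8.05), ADIPOR1 (6.41 ± 2.04), NAMPT (5.08 ± 1.60), LEPR (1.98 ± 0.922), RETN (1.14 ± 1.82), APLN (0.0834 ± 0.0427), ADIPOQ (0.00894 ± 0.00823) and LEP (0.00132 ± 0.00295 RPKM, SD, n = 5 for each). There METRNL and ADIPOR1, ADIPOR1 and NAMPT, and ADIPOQ and LEP kept their order in 3 of 5 libraries, and LEPR and RETN in 4. An exact sign-flip test over 5 libraries cannot go below p = 0.0625, so no neighbouring pair could pass 0.05.

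The order rests on the exonic length that the table gives each gene. For ADIPOR1 that length was 8379 bases against 2116 in RefSeq, and for ADIPOQ it was 3846 against 985, where the RefSeq model is marked as partial. With RefSeq lengths ADIPOQ rose to 3662 RPKM in backfat and stayed at the head of the order, and ADIPOR1 moved to 18.6 RPKM in backfat and 25.4 RPKM in liver, above LEP in backfat and above METRNL in liver. ADIPOR2 stayed above ADIPOR1 in all libraries of both tissues with either length.

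Among genes that bind, assemble or transmit adiponectin, 15 were tested, and 4 were DEGs, near the 22.3% of all tested genes. CDH13, or T-cadherin, which holds adiponectin multimers on vascular cells, was the 1 DEG higher in backfat, at 156, 102, 165, 151 and 114 CPM in backfat against 4.99, 8.26, 5.84, 6.76 and 4.53 CPM in liver (log2 fold change 4.50, SE 0.233, adjusted p = 1.85e-08). The 3 DEGs higher in liver were PPARGC1A, a coactivator of oxidative metabolism (-5.47, adjusted p = 1.02e-07), GSTK1, a glutathione transferase that aids adiponectin assembly (-2.22, adjusted p = 9.03e-06), and PPARA, the nuclear receptor of fatty acid oxidation (-2.08, adjusted p = 0.00198). PPARA lay at the fold threshold and was no DEG with the boar as a block (-1.89), in limma-voom (-1.89), with library size alone (-1.41), or without backfat 69, backfat 72, liver 65 or liver 69 (-1.99 to -1.71). With library size alone GSTK1 had -1.52 and was no longer a DEG. At any fold 3 genes passed the FDR toward backfat, among them the adaptor APPL1 (1.37, adjusted p = 9.86e-06), 7 passed toward liver, and 5 did not pass, beside 55% of all tested genes past the FDR. The median log2 fold change of the list was -0.38.

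In the leptin list 13 genes were tested and 1 was a DEG, STAT5A, a transcription factor of cytokine receptors, higher in backfat (2.25, SE 0.296, adjusted p = 3.69e-05), where 22.3% of all tested genes were DEGs. At any fold 4 passed toward backfat, 3 toward liver and 6 did not pass, beside 55% of all genes past the FDR, with a list median of 0.04. STAT3, the main effector of LEPR, was at 158 ± 27.9 CPM in backfat and higher in liver (-0.82, adjusted p = 0.00236), though with library size alone it had -0.10 (adjusted p = 0.686). JAK2, the kinase bound to LEPR, had a log2 fold change of -0.01 (SE 0.258, adjusted p = 0.975), which leaves a difference of either sign within its error.

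Receptors of chemerin, apelin, resistin and meteorin-like, with a peptidase that cuts apelin, gave 8 tested genes, of which 2 were DEGs toward backfat and 1 toward liver, beside 11.1% and 11.2% of all tested genes. The apelin receptor APLNR was at 160, 41.4, 191, 100 and 91.5 CPM in backfat and at 19.8, 15.3, 15.5, 11.1 and 14.8 CPM in liver (log2 fold change 2.93, SE 0.357, adjusted p = 1.89e-05), so it moved the same way as its ligand. That peptidase, MME, was also higher in backfat (8.13, adjusted p = 2.17e-08). The chemerin receptor CMKLR1 followed its ligand toward liver below the fold threshold (-1.24, adjusted p = 0.00055, 6.77 ± 1.53 CPM in backfat and 15.9 ± 4.74 in liver, SD, n = 5 each), and GPR1, its relative, was a DEG at low level (-2.59, adjusted p = 0.00036, 0.334 ± 0.138 and 2.04 ± 1.03 CPM), lost with library size alone (-1.84). With that scaling CMKLR1 had -0.51 and did not pass the FDR (adjusted p = 0.0805). CCRL2, which binds chemerin without signalling, had -1.10 (adjusted p = 0.0472), and it did not pass the FDR with library size alone (0.540), with no filter (0.0691) or without any 1 of backfat 67, 69, 71 and 72 and livers 65, 67 and 72 (0.0535 to 0.105). Of the proteins described as binding resistin, TLR4 had 0.73 (adjusted p = 0.0197, but 0.0562 without backfat 67 and 0.0560 without liver 71) and CAP1 0.19 (adjusted p = 0.405, but 0.00243 with library size alone). KIT, described as a receptor of meteorin-like, had 0.96 (adjusted p = 0.0976), and it passed the FDR with the boar as a block (1.21, adjusted p = 0.0313), in limma-voom (1.28, adjusted p = 0.0216), with library size alone (1.78, adjusted p = 0.00335) and without liver 67 (1.45, adjusted p = 0.00784). APELA had no identifier in the name table.

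Around NAMPT, 16 genes of NAD metabolism were tested and 4 were DEGs, all higher in liver, near the 22.3% of all tested genes, of which 11.2% lay toward liver. NNMT, which methylates nicotinamide, was at 96.0, 503, 203, 83.1 and 182 CPM in liver and at 0.0451, 0.0305, 0.303, 0.0360 and 0 CPM in backfat of boars 65, 67, 69, 71 and 72 (log2 fold change -11.33, SE 0.911, adjusted p = 5.24e-07). QPRT, which feeds the breakdown of tryptophan into NAD synthesis, was at 193, 82.4, 183, 156 and 223 CPM in liver and at 0.0226, 0.0305, 0.538, 0 and 0.0172 CPM in backfat (-10.45, SE 0.908, adjusted p = 1.01e-06). For both, backfat 69, with the albumin transcripts, was the highest backfat library, and without it the log2 fold changes were -12.70 for NNMT and -12.96 for QPRT. NADK2, the mitochondrial NAD kinase (-4.08), and AOX1, an aldehyde oxidase that acts on nicotinamide products (-2.59, and -1.89 with library size alone, no longer a DEG), were the other DEGs. At any fold 2 genes passed toward backfat, 7 toward liver and 7 did not pass, beside 55% of all genes past the FDR, with a list median of -0.51.

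Of 25 other secreted adipokines, 17 had an identifier and 15 were tested, with 7 DEGs toward backfat and 2 toward liver, beside 11.1% and 11.2% of all tested genes, and a list median of 1.41. With 1 library left out in turn, this list held 7 to 9 DEGs, and under the other alternatives 8 to 10. C1QTNF3, a relative of adiponectin, had 5.91 (SE 0.524, adjusted p = 1.22e-06). Its relative C1QTNF2 was at 19.4, 17.1, 22.8, 26.5 and 32.6 CPM in backfat and at 1.52, 2.73, 1.83, 3.76 and 1.76 CPM in liver (3.36, SE 0.293, adjusted p = 1.05e-06), with every backfat library above every liver library. DPP4, a peptidase shed into blood (-5.46, adjusted p = 1.52e-08), and RBP4, the retinol carrier of plasma (-4.32, adjusted p = 1.45e-05), were higher in liver. SERPINA12 (vaspin) and SPX were listed but had too few counts to be tested.

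**Figure D4:**
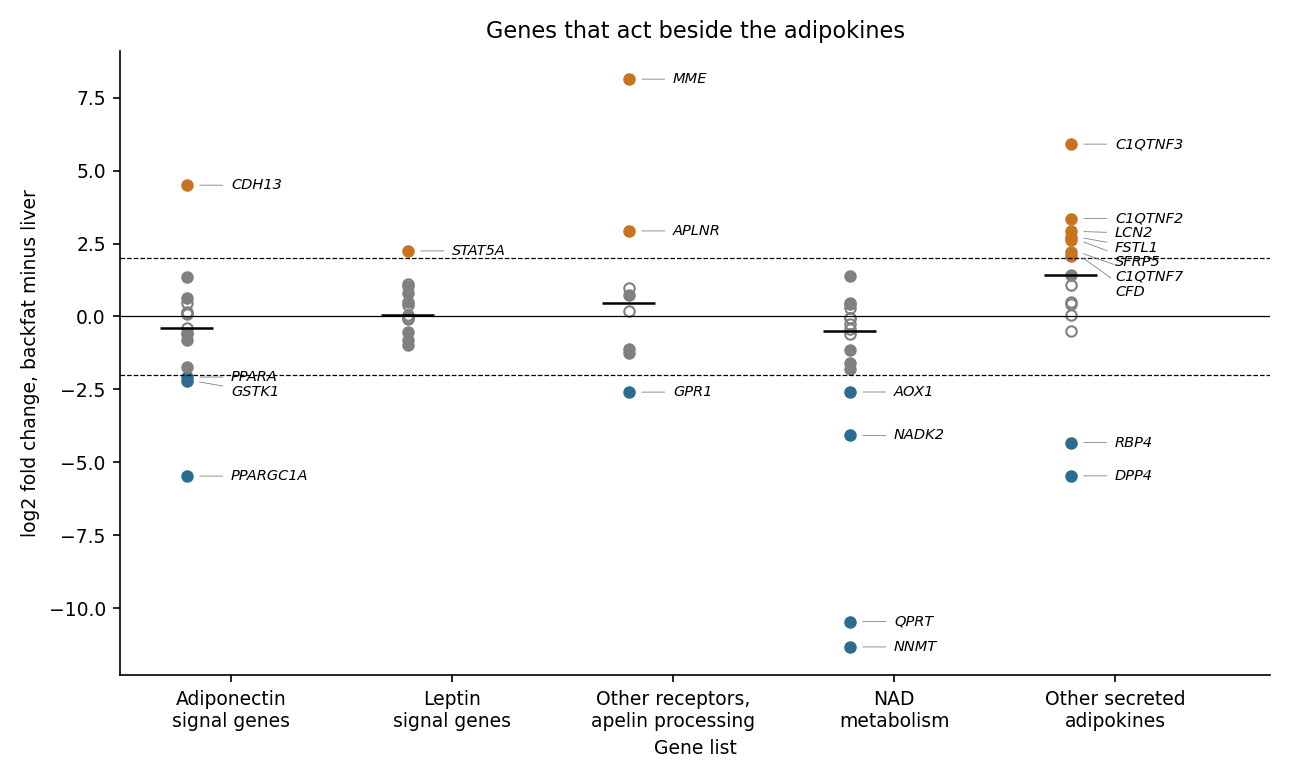
Log2 fold change of backfat over liver for each tested gene of 5 lists, with DEGs named and coloured (orange toward backfat, blue toward liver), grey points under the fold threshold, open points where the FDR was not passed, and a black line at the median of the list. The list of other adipokines has its median (1.41) above 0, and the 4 DEGs among 16 genes of NAD metabolism, a share near the 22.3% of all tested genes, lie toward liver.

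For 3 of the members, the genes with the most similar profile over the 10 libraries were sought among 12731 genes with a symbol. The measure was the root mean square (RMS) of the difference of centred log2 CPM, with 0.5 CPM added to each value. It is a description that the tissue difference dominates. The added 0.5 shrinks the contrast of genes near 0 in a tissue, so genes listed as near can differ in fold. DPP4 was 44.1-fold higher in liver and LEPR 247-fold, and ADORA1 was 597-fold higher in backfat and LEP 9081-fold. Nearest to ADIPOQ were LPL, lipoprotein lipase (RMS 0.515), FABP4 (1.26) and TRARG1, a regulator of the glucose transporter of fat (1.40). Nearest to LEP were PENK, proenkephalin (0.207), ADORA1, an adenosine receptor that restrains lipolysis (0.294), and LGALS12, a galectin of fat cells (0.321). Nearest to LEPR were ZNF385B (0.203), DPP4 (0.298) and NGEF (0.318).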

How the data were processed

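The deposited RNA-seq table holds raw counts per gene, which the authors made by trimming with Trimmomatic, mapping with HISAT2 and counting exons with featureCounts 2.0.1 and the Sscrofa11.1 annotation of Ensembl release 99, without strand. The counts of the 10 libraries were filtered by filterByExpr, scaled by TMM and tested in R 4.3.3 with edgeR 4.0.16 (quasi-likelihood test, tissue as the only term), with Benjamini-Hochberg adjustment over 16275 genes. The members, gene lists and tests were chosen with earlier results of these data known. Named genes were the members, their direct partners, the 2 DEGs with the largest change in each direction of a list, and the 3 nearest profiles of ADIPOQ, LEP and LEPR. After the fit, 1 gene of the receptor list and 1 of the other adipokines were taken out for a reason unrelated to their values and are not reported here, so the counts and medians of these lists cover the remaining genes. Genes were matched by the names of RefSeq, GPR1 under its newer symbol. Marker sums are CPM of all counts, without TMM. The same boar gave both tissues by column name (correlation of deviations 0.0359 to 0.226 for the same boar and -0.243 to 0.152 for others), and replicate numbers of the labels could not be tied to boars. Alternatives were DESeq2 1.42.0, limma 3.58.1 (voom), other scalings and filters, the boar as a block, and leaving out libraries. The files of the 10 bisulfite libraries were not used here, since they hold no genomic position. By column name each boar gave 1 library per tissue, so p-values measure the spread between these 5 animals.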

Additional observations from a re-analysis of the deposited data

Results flagged for a closer look

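Of 78 groups of 5 libraries examined for the genes and ratios named, 17 held a library that lay apart from the other 4. The rule was that the gap to its nearest neighbour divided by the range passed 0.71. Chance would set apart about 1 group in 20 if the groups were independent and normally distributed, which does not hold near 0 counts. The liver groups of PENK and LGALS12, all at 0, could not be set apart, and a group with a single read, as for LEP in liver, always is. Liver 67 was that library in 9 of them and backfat 69 in 5. In liver 67 the levels were 88.3 CPM for ADIPOR2 (nearest 215), 2.43 for RETN (nearest 0.380), 32.7 for PPARGC1A, 185 for GSTK1 (nearest 394), 27.9 for STAT5A, 503 for NNMT, 494 for RBP4 (nearest 2488), 7.80 for FABP4 and 0.351 for ADORA1. In backfat 69 they were 128 CPM for LEPROT, 9.40 for CMKLR1, 0.303 for NNMT, 0.538 for QPRT and 0.135 for ZNF385B. Backfat 67 was set apart for NAMPT at 38.8 CPM (nearest 27.8) and for RETN at 0.183 CPM, and liver 69 for LEP at 0.0212 CPM, which is a single read.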

How the results depend on the processing

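Under 19 alternatives to the fit, 164 of 167 values of the tested members kept their direction and their side of the call. So did 500 of 502 values of the other genes that the naming rule gave. That count leaves out PPARA, AOX1, NADK2, APPL1, STAT3 and JAK2. PPARA and AOX1 lost their call under the alternatives given with them above. Library size alone gave 5 members higher in backfat, by adding ADIPOR2 (2.21) and METRNL (2.11), turned ADIPOR1 to 0.27, and called 2874 genes higher in backfat and 1340 higher in liver, against 1814 and 1819. It moved the median of all genes by 0.71. DESeq2 moved it by -0.158. Asking for 10 counts in every library tested 13026 genes, so that ADIPOQ, LEP, APLN and LEPR were left out: 1852 genes were called (871 higher in backfat and 981 in liver), with 0 members higher in backfat and 1 in liver, 1 receptor gene and 2 genes of NAD metabolism. With no filter 2729 genes were higher in liver. Limma-voom gave 11.98 for LEP and -11.88 for QPRT, both still called. Leaving out each library gave 3 members higher in backfat and 2 in liver each time. The receptor ratio differed by 1.90 to 2.06 and the LEPR to LEPROT ratio by -9.89 to -8.89. With the replicate block (exact sign-flip test over boars) the differences were 1.97 and -9.55, each at p = 0.0625, the smallest that 5 boars can give, and the block in the fit over all genes changed no call of a member, while PPARA lost its call (-1.89) and KIT passed the FDR (adjusted p = 0.0313). With RefSeq lengths, chosen after seeing the data, 3 rather than 5 neighbouring pairs of backfat did not overlap. The causes were not tested, apart from the genes left out by a filter. Depth limits RETN, and LEP and ADIPOQ in liver, where few counts were made.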
